A study of Mus musculus with 22 samples.

Results

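The genes described here are 43 genes of the dividing cell: 22 that copy DNA in S phase (Mcm2, Mcm3, Mcm4, Mcm5, Mcm6, Mcm7, Pcna, Cdc6, Cdc45, Gins1, Gins2, Rrm1, Rrm2, Tyms, Fen1, Chaf1a, Chaf1b, Pola1, Prim1, Ccne1, Ccne2 and Uhrf1, called the replication genes) and 21 that carry out mitosis (Mki67, Top2a, Cenpf, Cenpe, Ccna2, Ccnb1, Ccnb2, Cdk1, Cdc20, Bub1, Bub1b, Aurka, Aurkb, Plk1, Ube2c, Birc5, Tpx2, Kif11, Kif20a, Nusap1 and Cdca8, called the mitotic genes). They were taken by name from 43430 genes in each deposited table, and each had 1 Ensembl identifier there. The samples were RNA of CD45.1+ thymocytes that carry both CD4 and CD8 (double-positive cells, an intermediate step of T cell maturation) from mice with or without the E2a gene (Tcf3), which encodes E protein transcription factors. All mice carried floxed E2a alleles (E2aF/F). At 4 weeks of age there were 3 E2aF/F controls and 3 VavCre E2aF/F knockouts in the first table, and 3 E2aF/F controls and 3 LckCre E2aF/F knockouts in the second. At 8 weeks there were 3 E2aF/F controls, 3 VavCre E2aF/F knockouts and 4 VavCre E2aF/F knockouts that had been sublethally irradiated and given wild-type bone marrow, taken 4 weeks after transplantation. The labels do not say which cells carry CD45.1 in the transplanted mice. Vav drives Cre across blood cells from their stem cells onward, and Lck drives it in developing T cells. The comparisons ask whether cells without E2a, and knockout cells facing wild-type competitors, differ from controls in the genes of cell division.

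Before S phase, the loading factor Cdc6 places the MCM ring (Mcm2 to Mcm7) on origins of replication, and Cdc45 and the GINS subunits (Gins1, Gins2) turn it into the working helicase. The primase and polymerase alpha (Prim1, Pola1), the sliding clamp (Pcna), the nucleotide-making enzymes (Rrm1, Rrm2, Tyms) and the chromatin assembly factor (Chaf1a, Chaf1b) then follow the fork. Mitosis is driven by cyclins A and B with Cdk1, and by the aurora and polo kinases, the spindle checkpoint and the anaphase-promoting complex. In the thymus, early double-positive cells divide as large blasts, and most later double-positive cells are small and no longer cycle. E2F factors are known to switch on the replication genes before S phase, and the MuvB complex with MYBL2 and FOXM1 switches on the mitotic genes later.

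Promoter sequence was matched for 35 of the 43 genes (RefSeq, GRCm38.p6, 250 bases before the RefSeq start of the gene). For 25 of the 35, a GENCODE transcript of the gene held the bases just after that start. Entries were not at hand for Gins1, Gins2, Mcm4, Ccne2, Aurkb, Ccna2, Tpx2 and Kif20a. The windows were searched on both strands for E2F sites (TTTCCCGC, TTTGGCGC, TTTCGCGC or TTTGCCGC), for the cell cycle homology region bound by MuvB (CHR: TTTGAA or TTCGAA), for CCAAT boxes (CCAAT) and for the E-boxes that E proteins bind (CAGCTG or CAGGTG). TTTCGCGC and the reverse-strand TTTGGCGC overlap where they meet, as in Mcm5. An E2F site was found in 5 of 18 replication promoters (27.8%), in 1 of 17 mitotic promoters (5.88%) and in 2.43% of 16516 protein-coding promoters. The E2F matches lay before Cdc6, Mcm5, Mcm6, Mcm7, Pola1 and Cdk1. The RefSeq start lay 350 bases from the GENCODE start for Cdc6, 539 for Mcm7 and 2394 for Cdca8, so these windows may miss the promoter in use. A CHR was found in 22.2% of the replication promoters, 47.1% of the mitotic promoters and 15.6% of all. A CCAAT box was found in 72.2%, 88.2% and 36.1%, and a CHR together with a CCAAT box in 16.7%, 47.1% and 5.9%. An E-box of these letters was found in 11.1%, 11.8% and 26.3%. The promoters below show a replication gene that was high in the 8-week knockouts (Mcm5), a replication gene that was not (Rrm2), the mitotic kinase with both kinds of site (Cdk1) and a mitotic kinase with a CCAAT box alone (Plk1). They are written 5′ to 3′ toward the gene, up to the earlier of the RefSeq and GENCODE starts, with E2F, CHR and CCAAT matches of either strand in capitals. Adjoining matches run together, and a CCAAT box on the other strand reads ATTGG. Mcm5 (ENSMUSG00000005410) lies at chr8:75109569-75128439, Rrm2 (ENSMUSG00000020649) at chr12:24708241-24714146, Cdk1 (ENSMUSG00000019942) at chr10:69335146-69352938 and Plk1 (ENSMUSG00000030867) at chr7:122159439-122169873 in the GENCODE annotation of GRCm38. A match describes letters only, and binding was not measured.
Mcm5 promoter, chr8:75109259-75109508, plus strand: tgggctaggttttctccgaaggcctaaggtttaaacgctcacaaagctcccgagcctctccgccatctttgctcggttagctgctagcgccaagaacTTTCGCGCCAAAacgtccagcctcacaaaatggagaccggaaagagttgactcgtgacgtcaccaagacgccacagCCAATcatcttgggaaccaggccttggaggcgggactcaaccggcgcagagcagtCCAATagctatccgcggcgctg
Rrm2 promoter, chr12:24708004-24708240, plus strand: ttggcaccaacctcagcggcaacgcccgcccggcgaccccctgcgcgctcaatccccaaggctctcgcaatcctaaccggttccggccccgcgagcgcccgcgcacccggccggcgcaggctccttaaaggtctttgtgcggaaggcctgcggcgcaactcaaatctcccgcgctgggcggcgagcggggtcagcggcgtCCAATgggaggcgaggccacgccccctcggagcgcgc
Cdk1 promoter, chr10:69352939-69353162, minus strand: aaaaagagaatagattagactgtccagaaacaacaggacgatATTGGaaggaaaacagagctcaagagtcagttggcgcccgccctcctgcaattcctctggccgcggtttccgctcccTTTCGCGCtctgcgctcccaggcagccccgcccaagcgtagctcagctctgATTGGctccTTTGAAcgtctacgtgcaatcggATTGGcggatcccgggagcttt
Plk1 promoter, chr7:122159185-122159434, plus strand: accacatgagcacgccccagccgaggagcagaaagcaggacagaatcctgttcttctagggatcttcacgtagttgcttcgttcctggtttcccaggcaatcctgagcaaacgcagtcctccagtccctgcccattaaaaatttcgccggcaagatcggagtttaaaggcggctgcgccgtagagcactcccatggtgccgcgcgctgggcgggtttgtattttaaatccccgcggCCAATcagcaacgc

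Values are FPKM, fragments per kilobase of gene scaled to depth, and changes are differences of the mean of log2(FPKM + 1), in which 1 means a doubling. The low values implied 5.49 to 37.5 M reads per library. All 43 genes passed the expression filter (1 FPKM in 3 or more libraries per table) in every comparison. Tcf3, the deleted gene, was at 6.39 to 7.47, 6.98 to 8.22 and 7.49 to 7.59 FPKM in the controls of the 3 tables and at 1.15 to 1.39, 1.20 to 1.33, 1.23 to 2.13 and 1.21 to 2.32 FPKM in the Vav, Lck, 8-week Vav and transplanted knockouts. Markers of the double-positive stage were present in each library, with Cd4 at 96.8 to 460.3 FPKM and Rag1 at 228 to 1276 FPKM, but Rag2 was at 59.4 to 62.98 FPKM in the 8-week controls and 4.53 to 5.93 and 1.84 to 13.2 FPKM in the untransplanted and transplanted knockouts. Transplanted replicate 3 stood apart from the other transplanted libraries. Its mean correlation with its own group was 0.940, against 0.953 to 0.960 for the others. All 22 replication genes and all 21 mitotic genes were below the control mean in it. The results of the 8-week table are therefore given with and without that library. Since its low values in these same genes were part of the reason, the calls without it are descriptive only. Animals are not named in the labels, and the p-values therefore rest on library-to-library spread, which may be technical.

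Exons of 8 genes overlap another gene over more than 10% of their length, and the strand used in counting is not given. The overlap was 84.2% for Fen1, 67.3% for Gins2, 52.5% for Chaf1a, 29.3% for Kif20a, 22.8% for Ube2c, 17.4% for Ccne2, 12.6% for Mcm7 and 12.5% for Ccna2. Values of these genes are less certain than the rest. In the 8-week controls the level per length ran from 1.07 ± 0.02997 FPKM (SD, n = 3) for Fen1 to 108 ± 6.49 FPKM for Pcna among the replication genes, and from 8.74 ± 0.724 FPKM for Aurka to 119 ± 9.14 FPKM for Mki67 among the mitotic genes. The added 1 FPKM makes the log2 change of a gene as low as Fen1 or Gins2 (1.77 ± 0.381 FPKM) smaller than its true ratio.

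In the 8-week Vav knockouts the summed genes of S phase were above the controls and those of mitosis below. The summed level of the 22 replication genes was 708, 643 and 672 FPKM in the 8-week controls and 978, 998 and 1029 FPKM in the Vav knockouts. The summed level of the 21 mitotic genes was 727, 675 and 668 FPKM in the controls and 588, 641 and 598 FPKM in the knockouts. The knockouts lay above the controls for replication and below them for mitosis, without overlap in either. The ratio of the replication sum to the mitotic sum was 0.953 to 1.01 in the controls and 1.66, 1.56 and 1.72 in the knockouts. At 4 weeks this ratio was 1.04 to 1.08 in the Vav controls and 1.20, 1.12 and 1.30 in the Vav knockouts. It was 0.947 to 1.01 in the Lck controls and 1.01, 0.962 and 0.943 in the Lck knockouts. The transplanted libraries had ratios of 2.36, 1.78, 2.06 and 1.74, and replicate 3 lay inside that range although both of its sums were low (276 and 133 FPKM). In RNA of whole cell populations, fewer cells of a type and less RNA per cell cannot be told apart.

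**Figure D1:**
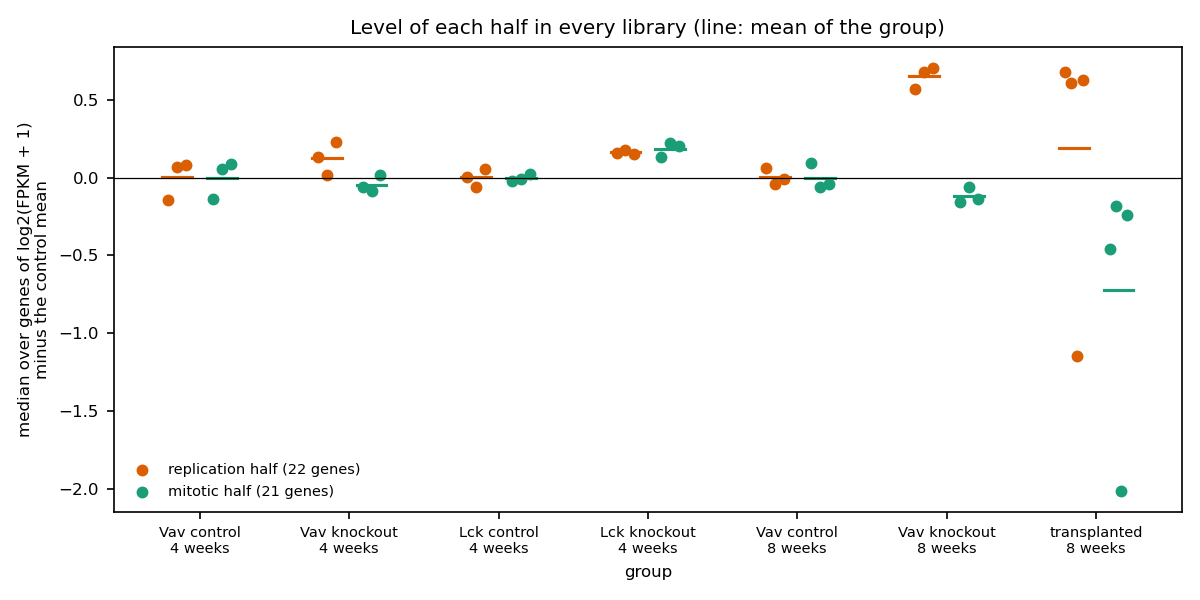
Median over the replication genes (orange) or the mitotic genes (green) of log2(FPKM + 1) minus the control mean of the same table, 1 point per library and a line at the group mean. The 8-week Vav knockouts lie at 0.57 to 0.70 for replication and at -0.15 to -0.06 for mitosis, and transplanted replicate 3 at -1.14 and -2.01.

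**Figure D2:**
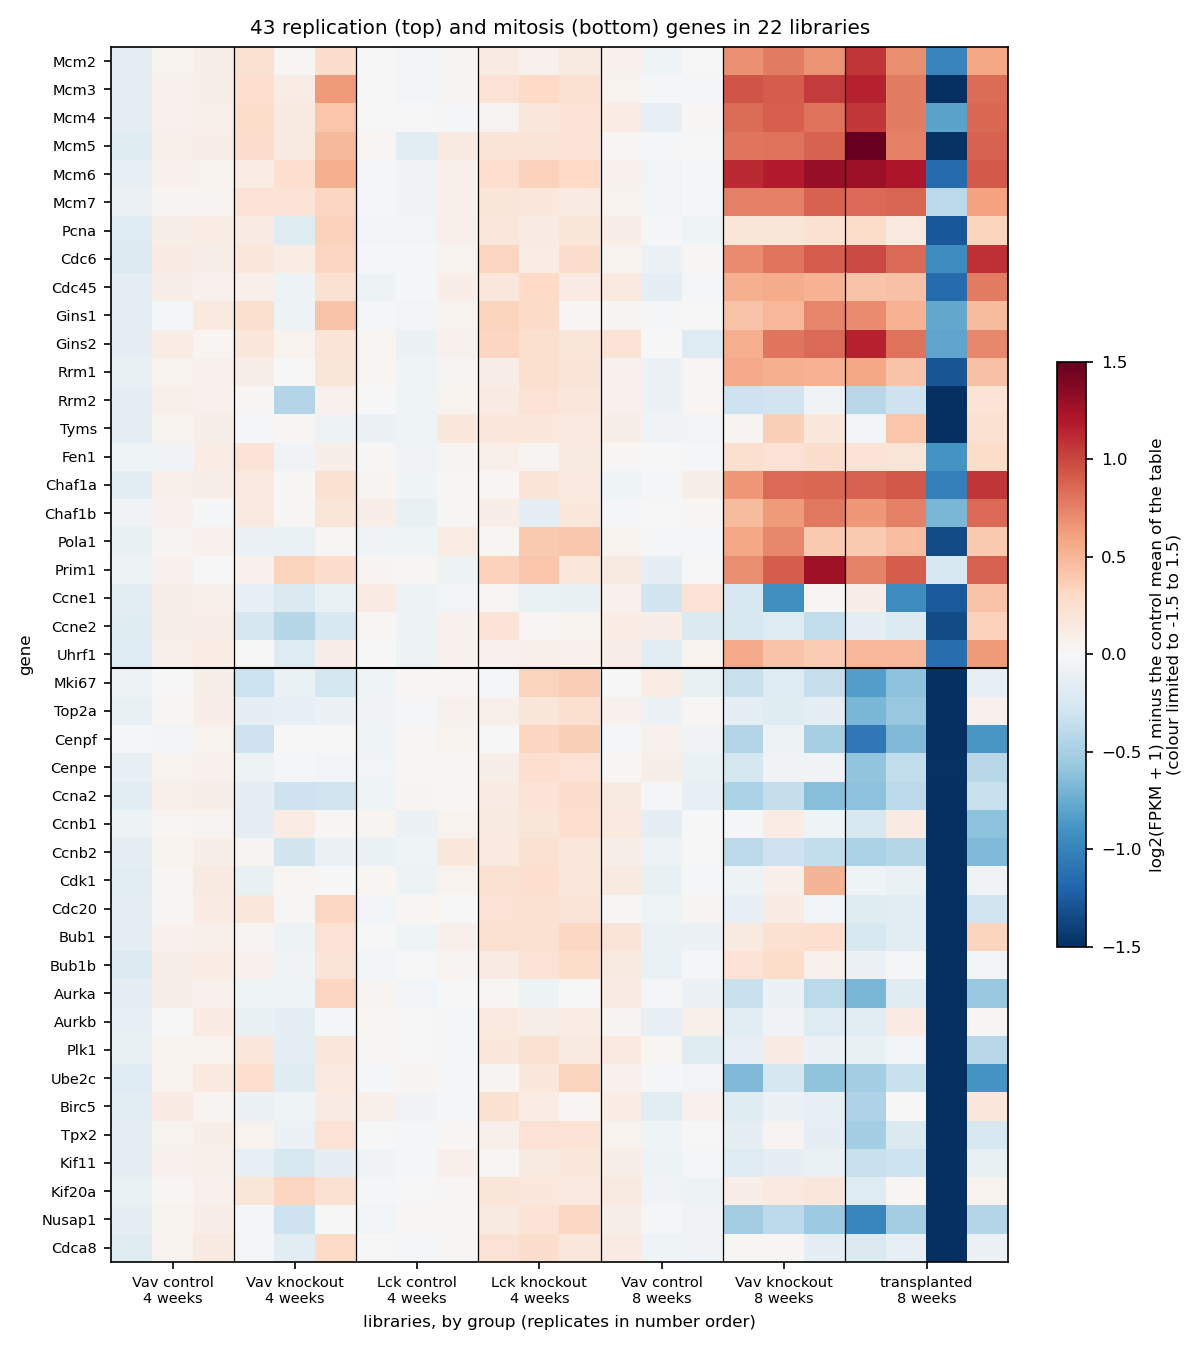
Each row is 1 of the 43 genes and each column 1 of the 22 libraries. Colour gives log2(FPKM + 1) minus the control mean of the same table, limited to -1.5 to 1.5. Red marks most replication genes in the 8-week knockouts, with Rrm2, Ccne1 and Ccne2 as blue or pale rows, and the blue column is transplanted replicate 3.

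The MCM helicase genes were high in each 8-week Vav knockout. Mcm2 was at 77.9, 71.5 and 74.9 FPKM in the controls and at 121, 128 and 120.3 FPKM in the knockouts. Mcm5 was at 67.8, 65.97 and 66.3 FPKM in the controls and 117, 118 and 123 FPKM in the knockouts. Mcm6, whose log2 change exceeded those of the other 42 genes, was at 33.9, 31.3 and 31.7 FPKM and then 71.4, 75.04 and 81.6 FPKM. None of these groups overlapped. The log2 changes were 0.71 for Mcm2, 0.97 for Mcm3, 0.85 for Mcm4, 0.83 for Mcm5, 1.21 for Mcm6 and 0.80 for Mcm7.

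The factors that load and fire origins were also higher in each knockout. Cdc6, the helicase loader, was at 5.57, 4.92 and 5.46 FPKM in the controls and 9.34, 9.97 and 10.8 FPKM in the knockouts, a log2 change of 0.80. Cdc45, part of the active helicase, had 0.54, Gins1 0.55 and Gins2 0.73 on the same scale. Uhrf1, which keeps DNA methylation on the new strand, was at 30.9, 25.7 and 29.8 FPKM in the controls and 43.2, 38.8 and 37.8 FPKM in the knockouts, a change of 0.46. Of the genes that start strands and repack chromatin, Prim1 had a log2 change of 0.96, Pola1 0.56, Chaf1a 0.79 and Chaf1b 0.63. The control and knockout libraries were apart for all of these genes.

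Apart from Rrm1, the other S phase genes had smaller or negative changes. Pcna, the clamp that holds the polymerase, was at 115, 105 and 103 FPKM in the controls and 122, 123 and 127 FPKM in the knockouts, a small gap without overlap and a log2 change of 0.20. The subunits of ribonucleotide reductase, which makes deoxynucleotides, had changes of opposite sign. Rrm1 had a log2 change of 0.54, while Rrm2 was at 105, 94.5 and 102 FPKM in the controls and 80.95, 81.8 and 97.2 FPKM in the knockouts, a change of -0.22 with overlapping libraries. Tyms, which makes thymidylate, had 0.19, and Fen1, which trims lagging-strand flaps, 0.24. Ccne1, the cyclin of S phase entry, was at 6.17, 4.65 and 6.99 FPKM in the controls and 4.84, 2.62 and 5.93 FPKM in the knockouts. Ccne2, its relative, was at 4.31, 4.28 and 3.25 FPKM in the controls and 3.17, 3.30 and 2.79 FPKM in the knockouts. The cyclin E libraries overlapped, with log2 changes of -0.38 and -0.27.

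In limma's fit of all 10 libraries of the 8-week table, 0 of the 22 replication genes passed the threshold of an adjusted p of 0.05, and 2 had an unadjusted p under 0.05. The fit called 9.1% of 11632 genes, 4.65% higher and 4.45% lower. The median log2 change of the 22 genes was 0.60, against -0.0049 over all genes tested, and 19 of the 22 were positive, against 49.6%. The libraries of control and knockout did not overlap, with the knockouts higher, for 18 of the 22, against 28.9% of all genes tested. The spread in this fit includes transplanted replicate 3. Without that library, 16 of the 22 replication genes rose and 0 fell, against 16.6% and 14.2% of 11472 genes. Mcm6 then had a log2 change of 1.21 with SE 0.11 (adjusted p = 0.000429), Mcm3 0.97 with SE 0.11 (adjusted p = 0.000772) and Prim1 0.96 with SE 0.15 (adjusted p = 0.00288). The 6 that did not pass were Pcna (adjusted p = 0.101), Fen1 (0.112), Tyms (0.319), Rrm2 (0.335), Ccne1 (0.46) and Ccne2 (0.247). A fit of the control and knockout groups alone called 17 higher, Pcna with them, against 22.9% of 10958 genes. Scaling each library to the same FPKM sum moved the median of all genes to -0.12, that of the replication genes to 0.47 and that of the mitotic genes to -0.26.

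Mitotic genes were level or lower in the same knockouts. Mki67, the proliferation antigen that coats mitotic chromosomes, was at 119, 128 and 110.2 FPKM in the controls and 94.3, 104 and 93.2 FPKM in the knockouts, which lay below. Top2a, which untangles DNA before division, was at 96.8, 86.8 and 93.5 FPKM and 83.1, 81.2 and 83.2 FPKM, again below. Ccna2, the cyclin of S phase and mitotic entry, was at 35.2, 31.7 and 29.4 FPKM in the controls and 22.7, 24.7 and 20.2 FPKM in the knockouts. Ccna2 showed the clearest gap of these genes, with a log2 change of -0.49, against -0.29 for Mki67 and -0.16 for Top2a.

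Of the kinases that start mitosis, Cdk1, Aurkb and Plk1 overlapped between the groups. Aurka did not, at 9.55, 8.49 and 8.17 FPKM in the controls and 6.71, 8.13 and 6.37 FPKM in the knockouts, which lay below. Cdk1 was at 15.4, 12.9 and 13.9 FPKM in the controls and 13.3, 14.8 and 20.4 FPKM in the knockouts, where replicate 3 was the highest of the 6. Its partner Ccnb1 was at 11.4, 9.19 and 10.1 FPKM and 9.99, 11.1 and 9.72 FPKM. Aurkb, the kinase of the chromosomal passenger complex, was at 10.4, 9.11 and 10.7 FPKM and 8.91, 9.64 and 8.66 FPKM. The log2 changes of these overlapping genes were 0.17, 0.01 and -0.13. Plk1, the polo kinase, was at 43.5, 39.9 and 34.4 FPKM and 35.7, 42.5 and 36.7 FPKM, a change of -0.03. Cdc20, which activates the anaphase-promoting complex, was at 41.7, 39.4 and 42.4 FPKM and 37.7, 44.9 and 39.96 FPKM, a change of -0.01. The highest changes among the mitotic genes were those of the spindle checkpoint kinase Bub1 (0.20) and its partner Bub1b (0.18).

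Of the 21 mitotic genes, 0 passed in the fit of 10 libraries, 0 had an unadjusted p under 0.05, and 16 were negative, with a median log2 change of -0.13. The knockout libraries lay below the controls without overlap for 9 of the 21, against 28.7% of all genes, and above them for 0. Without transplanted replicate 3, 4 of the 21 fell, against 14.2% of all genes. They were Ube2c, which ubiquitinates cyclin B (-0.50, adjusted p = 0.0413), Ccna2 (-0.49, adjusted p = 0.0135), the spindle protein gene Nusap1 (-0.48, adjusted p = 0.0315) and Ccnb2 (-0.36, adjusted p = 0.0176). With the control and knockout groups alone, Mki67 was called lower as well, making 5 against 22.8% of genes. The 10 double-positive markers summed to 4570 to 4944 FPKM in the controls and 2204 to 2477 FPKM in the knockouts. The 7 metabolic and surface genes of blasts (Tfrc, Slc7a5, Slc3a2, Ldha, Npm1, Ncl, Odc1) summed to 189.8 to 211 FPKM and 437 to 481 FPKM, with 0 genes of either list at 0 FPKM. The 7 double-negative markers summed to 2.27 to 2.80 FPKM in the controls and 7.94 to 27.6 FPKM in the knockouts, and the 7 markers of mature single-positive cells to 37.9 to 41.0 FPKM and 67.0 to 124 FPKM. The part of any of these lists in the results was not tested.

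**Figure D3:**
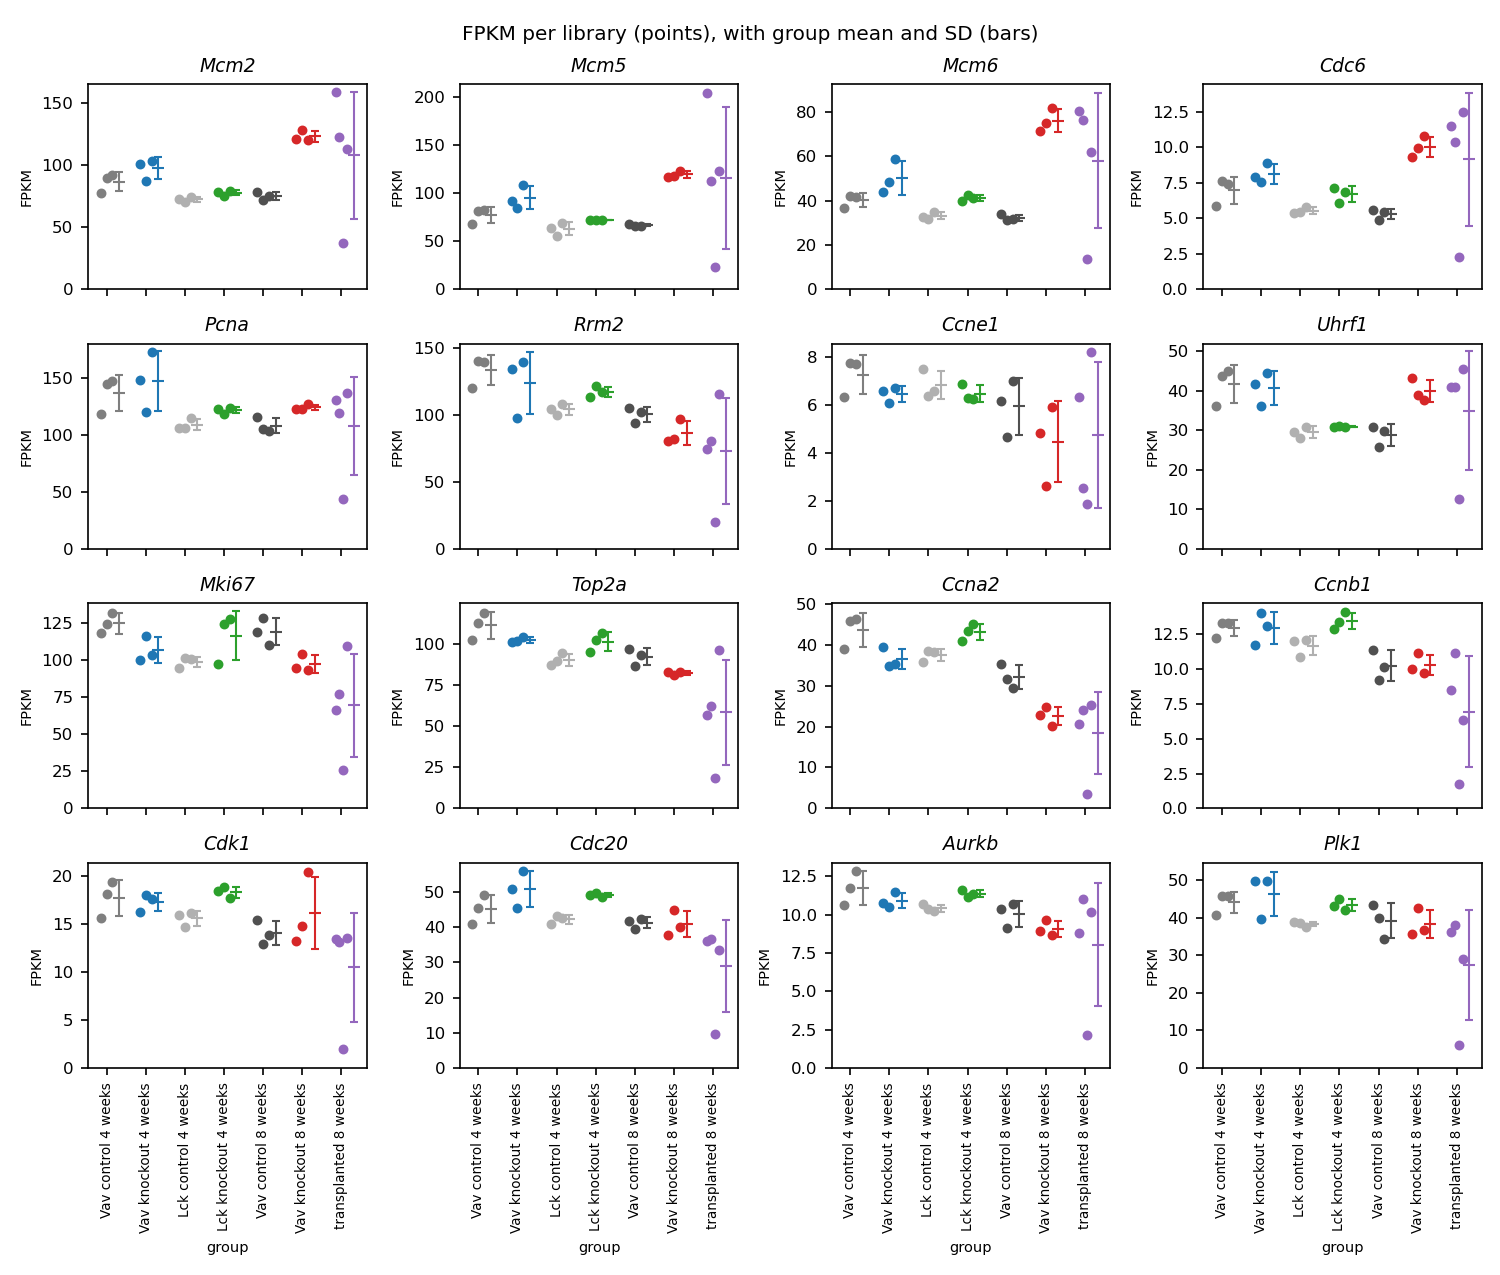
FPKM of 16 of the genes in each library (points), with the group mean and SD beside them, replication genes in the upper 2 rows and mitotic genes in the lower 2. Mcm2, Mcm5, Mcm6 and Cdc6 are high in the 8-week Vav knockouts, Rrm2 and Ccne1 are not, and the transplanted group has 1 low library in most panels.

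Genes of the same pathways outside the 43 were counted from fixed lists. Of 17 genes of origin licensing and initiation, 2 rose in the fit of 10 libraries, where 4.65% of all genes tested rose and 4.45% fell. They were Orc1 of the origin recognition complex (0.95, SE 0.25, adjusted p = 0.0475) and the helicase gene Recql4 (1.49, SE 0.29, adjusted p = 0.0161). Without transplanted replicate 3, 10 of the 17 rose and 0 fell, where 16.6% of all genes tested rose and 14.2% fell. Of 29 genes of the fork, nucleotide supply and chromatin, 0 passed in the fit of 10 libraries and 23 rose without that library, among them the fork protection gene Tipin (0.96), the primase subunit gene Prim2 (0.92), Timeless (0.90) and Hells (0.86). Of 47 tested genes of the spindle, kinetochore and cytokinesis, 0 passed, and without that library 5 rose and 2 fell, shares below those of all genes. The 5 were the separase gene Espl1 (0.78), Cenph (0.70), Cks1b (0.70), Racgap1 (0.48) and Cenpk (0.40), and the 2 were Cdca3 (-0.49) and Spc25 (-0.37).

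Of 21 regulators of these programmes, 3 fell and 0 rose in the fit of 10 libraries, against 4.45% and 4.65% of all genes tested. E2f2, an activating E2F, fell with a log2 change of -1.88, SE 0.47 (adjusted p = 0.0384), from a mean of 129.6 FPKM in the controls to 35.4 FPKM in the knockouts. E2f4, a repressive E2F, fell by 0.79 (adjusted p = 0.0332), and Rb1, the retinoblastoma gene that restrains E2F, fell by 0.63 (adjusted p = 0.0425). Without transplanted replicate 3, 5 of the 21 rose, E2f6 (0.91), E2f1 (0.69), E2f3 (0.63), Mybl2 (0.45) and Tfdp1 (0.41), and 5 fell, adding E2f7 (-0.66) and Lin37 (-0.36), against 16.6% and 14.2% of all genes. Of 9 tested replication-dependent histone genes, 0 passed in the fit of 10 libraries, and Hist1h3c rose (1.15) and Hist3h2a fell (-0.58) without that library.

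At 4 weeks the Vav knockouts overlapped the controls in most of these genes. The replication genes summed to 758, 887 and 896 FPKM in the controls and 929, 817 and 1033 FPKM in the knockouts, and the mitotic genes to 731, 824 and 854 FPKM and 772, 733 and 797 FPKM. Both pairs of sums overlapped. Mcm2 was at 77.7, 89.6 and 91.9 FPKM in the controls and 101.03, 87.3 and 103 FPKM in the knockouts. Mcm5 was at 67.9, 81.2 and 82.9 FPKM and 92.5, 84.9 and 109 FPKM, with each knockout above each control. Cdc6 was at 5.86, 7.65 and 7.42 FPKM and 7.91, 7.60 and 8.89 FPKM, which overlapped. Control replicate 1 was the low one in all 3 genes, and it was below the control mean for all 22 replication and all 21 mitotic genes.

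Mcm3, Mcm4, Mcm6 and Mcm7 also had each knockout above each control at this age. Mcm3 was at 28.6 to 33.7 FPKM in the controls and 34.4 to 50.1 FPKM in the knockouts. Mcm4 was at 64.4 to 75.4 FPKM and 78.6 to 95.3 FPKM. Mcm6 was at 36.9 to 42.3 FPKM and 43.7 to 58.7 FPKM, and Mcm7 at 29.9 to 32.7 FPKM and 36.6 to 39.8 FPKM. The S phase genes that follow here had no common direction. Pcna was at 118, 145 and 147 FPKM in the controls and 148, 120.04 and 172 FPKM in the knockouts. Rrm2 was at 120.4, 141 and 139.7 FPKM and 135, 97.7 and 139 FPKM. Uhrf1 was at 36.3, 43.9 and 45.1 FPKM and 41.8, 36.1 and 44.4 FPKM. In these 3 genes knockout replicate 2 was the lowest knockout library, and the groups overlapped. Ccne1 was at 6.34, 7.73 and 7.70 FPKM and 6.58, 6.07 and 6.68 FPKM, also with overlap. Ccne2 was at 5.28, 6.58 and 6.61 FPKM and 4.96, 4.28 and 5.05 FPKM, with each knockout below each control. The largest positive log2 changes were those of Mcm3 (0.34) and Mcm6 (0.30), and the largest negative ones those of Ccne2 (-0.31) and Ccne1 (-0.15).

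Among the mitotic genes at 4 weeks, Mki67 was at 118, 124 and 132 FPKM in the controls and 99.6, 116 and 104 FPKM in the Vav knockouts, which lay below. Ccna2 was at 38.8, 45.9 and 46.2 FPKM and 39.3, 34.8 and 35.3 FPKM, where 1 knockout overlapped the lowest control. Top2a was at 103, 113 and 119 FPKM and 101.04, 102 and 104 FPKM, with overlap. These 3 genes had log2 changes of -0.23, -0.25 and -0.12, and those of Ccna2 and Mki67 were the largest negative ones of the 21. Cdc20 was at 40.9, 45.4 and 49.03 FPKM and 50.9, 45.5 and 55.8 FPKM. Plk1 was at 40.8, 45.7 and 45.8 FPKM and 49.8, 39.6 and 49.8 FPKM. Cdk1 was at 15.6, 18.1 and 19.4 FPKM and 16.3, 18.03 and 17.6 FPKM. The groups overlapped in these 3 genes, as they did in Ccnb1 at 12.2, 13.2 and 13.3 FPKM and 11.7, 13.97 and 13.1 FPKM. Aurkb was at 10.6, 11.8 and 12.8 FPKM and 10.8, 10.5 and 11.4 FPKM, again with overlap. The largest positive changes were those of the spindle midzone kinesin gene Kif20a (0.24) and Cdc20 (0.17).

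Of the 43 genes, 0 passed in limma's 4-week Vav comparison, which called 13.7% of 10828 genes (7.63% higher and 6.08% lower). At an unadjusted p under 0.05 there were 6 replication and 3 mitotic genes, against 29.9% of all genes tested. The smallest adjusted p was 0.0512, of Mcm7 (log2 change 0.24, SE 0.062). The replication genes had a median log2 change of 0.12, with 16 of 22 positive, and the mitotic genes -0.01, with 9 of 21 positive, against 48.1% positive of all genes. Without control replicate 1 the medians were 0.060 and -0.088, and without control replicate 3 the mitotic median was 0.014. Libraries did not overlap, with knockouts higher, for 5 replication genes and 1 mitotic gene, against 19.2% of all genes, and with knockouts lower for 1 of each, against 18.7%. With libraries scaled to equal FPKM sums, Ccne2 (adjusted p = 0.0488) and Ccna2 (adjusted p = 0.0428) were called lower. In the further lists, Orc1 (0.41) and Recql4 (0.51) rose as 2 of 17 licensing genes, and 2 of 29 fork genes rose, the polymerase subunit gene Pole2 (0.29) among them, with 0 lower in either list. Of 47 spindle genes, Cks1b (0.53) and Espl1 (0.34) rose, while Cdca3 (-0.32) and Ect2 (-0.28) fell. Of 21 regulators, E2f2 (-0.95), E2f4 (-0.42) and Rb1 (-0.41) fell and E2f6 (0.45) rose, and of 7 tested histone genes 0 passed. Double-positive markers summed to 4604 to 4753 FPKM in the controls and 3310 to 3961 FPKM in the knockouts, the blast genes to 203 to 228 FPKM and 268 to 326 FPKM. The double-negative markers summed to 2.16 to 2.60 FPKM and 14.4 to 31.9 FPKM, and those of mature single-positive cells to 26.5 to 28.1 FPKM and 75.3 to 82.1 FPKM. Il2ra made up most of the double-negative sums, at 1.84 to 2.13 FPKM in the controls and 13.5 to 30.9 FPKM in the knockouts. Kit went the other way, from 0.143 to 0.238 FPKM in the controls to 0.0202 to 0.0464 FPKM in the knockouts. The part of these lists in the results was not tested.

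The Vav knockout effect on most replication genes was higher at 8 weeks than at 4 weeks. As an interaction in limma over the 12 Vav libraries, which leaves out the transplanted mice, 15 of the 22 replication genes had a higher effect at 8 weeks and 0 a lower one, against 8.87% and 9.37% of 10489 genes. Of the 21 mitotic genes, 0 passed. At an unadjusted p under 0.05 there were 15 replication genes and 2 mitotic genes (Ube2c and Nusap1), against 33.2% of all genes. The 6 MCM genes were all called. The difference of log2 changes was 0.91 for Mcm6 (SE 0.14, adjusted p = 0.00366), 0.63 for Mcm3, 0.57 for Mcm4, 0.56 for Mcm7, 0.54 for Mcm2 and 0.54 for Mcm5. Prim1 (0.73), Chaf1a (0.66), Pola1 (0.62), Cdc6 (0.60), Gins2 (0.59), Chaf1b (0.52), Uhrf1 (0.49), Cdc45 (0.46) and Rrm1 (0.45) were the others. The 7 that did not pass were Gins1 (0.35, adjusted p = 0.19), Tyms (0.21), Fen1 (0.17), Pcna (0.11), Ccne2 (0.04), Rrm2 (-0.10) and Ccne1 (-0.24).

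The median difference was 0.53 for the replication genes and -0.10 for the mitotic genes, against -0.02 for all genes, with 20 of 22 and 5 of 21 positive, against 47.9%. Mitotic differences ran from -0.58 for Ube2c (95% interval -1.01 to -0.15, adjusted p = 0.0629) and -0.37 for Nusap1 to 0.14 for Bub1 and 0.20 for Cdk1 (95% interval -0.23 to 0.63). Under scaling to the same sum the calls were 13 replication genes higher and 2 mitotic genes lower (Ube2c and Nusap1), against 15 and 0. Of the 15 calls, those of Cdc45, Gins2 and Uhrf1 were lost in over 10 alternatives. Leaving out 1 library lowered the 15 to 9 when it was 4-week Vav control replicate 2 or 3 or 8-week control replicate 2. In the further lists 9 of 17 licensing genes and 16 of 29 fork genes had a higher effect at 8 weeks and 0 a lower one, with Recql4 (0.99), Tipin (0.74) and Pole (0.73) among them. Of 47 spindle genes, 2 were higher, Espl1 (0.44) and Racgap1 (0.32). Of 21 regulators, E2f1 was higher (0.50) and E2f4 lower (-0.37), and of 5 tested histone genes 0 passed. The ages were in separate tables, so age and whatever else set the tables apart cannot be told apart.

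**Figure D4:**
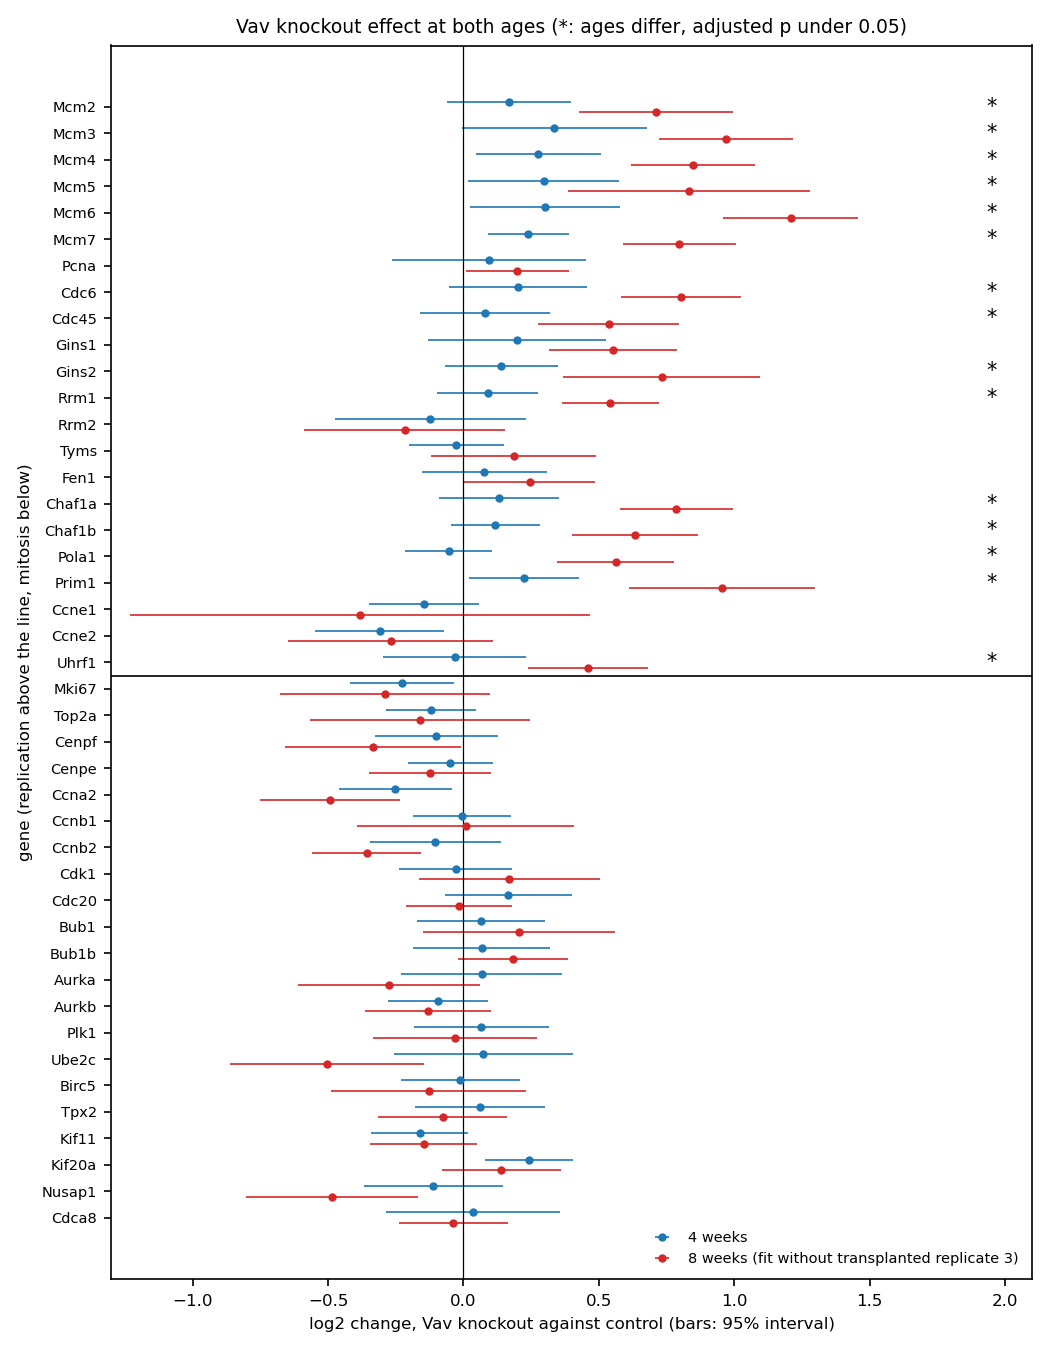
Log2 change of the Vav knockout against its control for each of the 43 genes at 4 weeks (blue) and 8 weeks (red, from the fit without transplanted replicate 3), with 95% intervals, and a star where the difference between the ages passed. The red points of 15 replication genes lie to the right of the blue ones with a star, and no mitotic gene has a star.

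In the Lck knockouts at 4 weeks nearly all genes of both groups were slightly above the controls, and none passed. The replication genes summed to 684, 656 and 712 FPKM in the Lck controls and 757, 778 and 774 FPKM in the Lck knockouts. The mitotic genes summed to 676, 692 and 717 FPKM and 748, 809 and 821 FPKM. Each knockout sum was above each control sum. Mcm2 was at 72.5, 70.1 and 74.1 FPKM in the controls and 78.5, 75.4 and 79.3 FPKM in the knockouts. Mcm5 was at 64.3, 55.7 and 69.04 FPKM and 72.1, 71.98 and 72.5 FPKM. Pcna was at 106, 106 and 115 FPKM and 122, 119 and 123 FPKM. These 3 genes did not overlap, nor did Rrm2 at 105, 100.04 and 109 FPKM and 114, 121 and 117 FPKM. Cdc6 was at 5.41, 5.43 and 5.81 FPKM and 7.16, 6.09 and 6.86 FPKM, also apart. Uhrf1 at 29.6, 27.97 and 30.98 FPKM and 30.8, 31.04 and 30.96 FPKM overlapped. Ccne1 at 7.48, 6.38 and 6.57 FPKM and 6.87, 6.28 and 6.22 FPKM was the 1 replication gene of negative sign (-0.07), and Ccne2 at 5.16, 4.77 and 5.35 FPKM and 6.01, 5.22 and 5.31 FPKM overlapped too.

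The mitotic genes were also above the controls in the Lck knockouts. Top2a was at 87.02, 89.5 and 94.4 FPKM in the controls and 95.2, 103 and 107 FPKM in the knockouts. Ccna2 was at 35.7, 38.4 and 38.2 FPKM and 40.99, 43.3 and 45.02 FPKM. Ccnb1 was at 11.98, 10.9 and 12.1 FPKM and 12.9, 13.4 and 14.1 FPKM. All 3 lay higher without overlap, as did Cdk1 at 15.95, 14.7 and 16.1 FPKM and 18.4, 18.8 and 17.7 FPKM. Cdc20 was at 40.9, 43.3 and 42.5 FPKM and 49.02, 49.6 and 48.6 FPKM. Plk1 was at 38.7, 38.5 and 37.7 FPKM and 43.01, 45.02 and 42.05 FPKM. Aurkb was at 10.7, 10.4 and 10.2 FPKM and 11.6, 11.1 and 11.4 FPKM. These kinase and cofactor genes were also apart, while Mki67 at 94.4, 100.97 and 100.3 FPKM and 97.3, 124 and 127 FPKM had 1 knockout among the controls. The largest changes were those of Prim1 (0.30) and Mcm6 (0.30) for replication and Bub1 (0.25) and Cenpf (0.23) for mitosis, and Aurka was the 1 mitotic gene of negative sign (-0.02).

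By limma, 0 of the 22 replication and 0 of the 21 mitotic genes passed in the Lck comparison, which called 1% of 10946 genes. At an unadjusted p under 0.05 there were 14 and 15 of them, against 13.7% of all genes. The median log2 changes were 0.16 and 0.18, with 21 of 22 and 20 of 21 positive, against a median of 0.02 and 55.8% positive over all genes. Libraries did not overlap, with knockouts higher, for 14 and 15 of them, against 11.7% of all genes, and 0 were lower without overlap, against 8.27%. The smallest adjusted p was 0.063 for Mcm6 and 0.0806 for Cdc20. Scaling to the same sum moved the medians to 0.077 and 0.097, and that of all genes from 0.02 to -0.060. Of the further genes, Cks1b rose (0.28, adjusted p = 0.0422) as 1 of 47 spindle genes and E2f2 fell (-0.40, adjusted p = 0.0149) as 1 of 21 regulators. Of the 17 licensing, 29 fork and 9 histone genes, 0 passed. The blast genes summed to 190.4 to 198 FPKM in the controls and 221 to 223 FPKM in the knockouts, and the double-positive markers to 4551 to 4768 FPKM and 4214 to 4421 FPKM. The double-negative markers summed to 2.50 to 3.68 FPKM and 4.67 to 5.99 FPKM, and those of mature single-positive cells to 35.7 to 40.9 FPKM and 41.6 to 45.8 FPKM. Il2ra made up most of the double-negative sums, at 2.07 to 3.12 FPKM in the controls and 3.97 to 5.38 FPKM in the knockouts. The part of these lists in the results was not tested.

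The Vav and Lck effects at 4 weeks were compared as an interaction over 12 libraries of separate tables, so Cre driver and table cannot be told apart. Of the replication genes 0 passed and 2 (Ccne2 and Pola1) had an unadjusted p under 0.05. Of the mitotic genes 1 passed and 9 had an unadjusted p under 0.05, against 3.3% (1.65% in each direction) and 16.9% of 10541 genes. The gene that passed was Ccna2, whose Vav effect was below its Lck effect by 0.45 on the log2 scale (-0.45, SE 0.10, adjusted p = 0.0449). That call was lost in 13 of 20 alternatives, among them leaving out any 1 of the 6 Lck libraries, Vav control replicate 2 or 3 or Vav knockout replicate 2 or 3, with adjusted p-values from 0.0194 to 0.133. Mki67 had a difference of -0.45 (adjusted p = 0.114). The median difference was -0.05 for the replication genes and -0.20 for the mitotic genes, against -0.02 for all genes, and 8 of 22 and 2 of 21 were positive, against 45.5%. The replication median turned to 0.017 without Vav knockout replicate 2. At the other ends were Mcm4 (0.14), Mcm5 (0.10), Aurka (0.08) and Kif20a (0.08), and among replication genes Ccne2 (-0.40) and Pola1 (-0.33) had the lowest values. Of the further lists, Prc1, a spindle midzone gene, was lower (-0.35, adjusted p = 0.0442).

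The transplanted knockouts were compared with the same 8-week controls as the untransplanted knockouts, so the 2 sets of changes share 3 libraries. In 3 of the 4 transplanted libraries the replication genes were high, and in replicate 3 they were low. The replication sums were 1153, 969, 276 and 1028 FPKM and the mitotic sums 488, 545, 133 and 591 FPKM in replicates 1 to 4. Mcm2 was at 158, 122, 37.2 and 113 FPKM in these replicates. Mcm5 was at 204, 113, 23.2 and 124 FPKM. Cdc6 was at 11.5, 10.3, 2.27 and 12.5 FPKM. In each of these 3 genes replicate 3 was below all controls and the others were above them. Pcna was at 131, 119, 44.1 and 136 FPKM. Rrm2 was at 75.02, 80.8, 20.03 and 116 FPKM. Uhrf1 was at 40.9, 40.9, 12.6 and 45.4 FPKM. For Rrm2, only replicate 4 reached above the controls, whose highest value was 105.2 FPKM. Ccne1 was at 6.34, 2.56, 1.86 and 8.21 FPKM and Ccne2 at 3.46, 3.25, 0.935 and 5.24 FPKM, on both sides of the controls.

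The mitotic genes were low in replicate 3 and level or low in the others. Mki67 was at 66.4, 76.9, 25.6 and 109 FPKM in replicates 1 to 4. Top2a was at 56.9, 62.1, 18.3 and 96.6 FPKM. Ccna2 was at 20.6, 24.1, 3.64 and 25.2 FPKM. All 4 libraries were below the controls for Mki67 and Ccna2, and replicate 4 was not for Top2a. Cenpf, which joins the kinetochore in mitosis, was at 9.98, 10.6 and 9.76 FPKM in the controls and 4.28, 6.02, 1.88 and 5.08 FPKM in the transplanted libraries. Cdk1 was at 13.4, 13.1, 1.94 and 13.5 FPKM, with replicates 1, 2 and 4 inside the control range. Ccnb1 was at 8.48, 11.2, 1.77 and 6.32 FPKM. Cdc20 was at 36.1, 36.7, 9.53 and 33.4 FPKM. Plk1 was at 36.2, 38.1, 6.19 and 29.1 FPKM. For Cdc20 the libraries lay below the controls, and for Ccnb1 and Plk1 they overlapped. Aurkb was at 8.83, 11.03, 2.16 and 10.2 FPKM, where replicate 2 lay above the controls and replicate 4 among them.

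With all 4 transplanted libraries, limma called 0 of the 22 replication genes (0 at an unadjusted p under 0.05) and 1 of the 21 mitotic genes (6 unadjusted), against 9.19% of 11632 genes (4.59% higher, 4.6% lower and 26% unadjusted). The gene called was Cenpf, which fell (-1.14, SE 0.27, adjusted p = 0.0318), and Ube2c had the lowest value (-1.16, SE 0.53, adjusted p = 0.2). The Cenpf call was lost in 7 of 19 alternatives, with adjusted p-values from 0.00309 to 0.136. Leaving out replicate 1, any 1 of the 3 controls or untransplanted replicate 1 was enough to lose it. The median log2 change was 0.27 for the replication genes, from 0.58 for Prim1 and 0.57 for Mcm6 to -0.42 for Ccne1 and -0.70 for Rrm2. It was -0.74 for the mitotic genes, of which 0 were positive, while 15 of 22 replication genes were, against 49.4% of all genes. Leaving out replicate 1 moved the replication median to 0.036, and leaving out replicate 2 moved the mitotic median to -0.96. The transplanted libraries lay below the controls without overlap for 12 mitotic genes, against 12.9% of all genes, and for 0 replication genes, and above them for 0 genes of either kind, against 11.5%. Without replicate 3, 17 replication genes rose and 9 mitotic genes fell, against 18.3% and 14.9% of 11472 genes. That library was set apart partly by its low values in these genes, so the 2 counts are not independent of that choice. The 17 were the 16 called in the untransplanted knockouts without that library and Pcna (0.25, adjusted p = 0.0464). The replication median was then 0.66, led by Mcm6 (1.14) and Mcm5 (1.08). The 9 that fell were Cenpf (-0.87, adjusted p = 0.00309), Nusap1 (-0.64), Ube2c (-0.58), Mki67 (-0.52), Ccnb2 (-0.52), the aurora kinase gene Aurka (-0.48), the kinetochore motor gene Cenpe (-0.46), Ccna2 (-0.45) and the spindle assembly gene Tpx2 (-0.32), and the mitotic median was -0.26.

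Other markers moved with transplanted replicate 3. The double-positive markers summed to 3456 FPKM in it and to 1372 to 2305 FPKM in the other transplanted libraries, against 4570 to 4944 FPKM in the controls. The blast genes summed to 164 FPKM in it and 375 to 571 FPKM in the others. The 7 macrophage and granulocyte markers summed to 21.9 FPKM in it and 2.13 to 5.43 FPKM in the others, and the 6 erythroid markers to 72.7 FPKM in it and 29.1 to 51.1 FPKM in the others. All 4 transplanted libraries were above the controls in summed double-negative markers (7.23 to 132 FPKM, 32.2 FPKM in replicate 3, against 2.27 to 2.80 FPKM) and in summed markers of mature single-positive cells (95.8 FPKM in replicate 3 to 263 FPKM, against 37.9 to 41.0 FPKM). Not all double-negative markers rose. Cd44 was at 0.0142 to 0.133 FPKM in the transplanted libraries and 0.202 to 0.232 FPKM in the controls. In replicate 4, Il2ra was at 1.02 FPKM, below the controls (1.96 to 2.47 FPKM). Hes1 (3.48 FPKM) and Kit (2.55 FPKM) made up most of that library's sum. The part of any of these in the cell cycle genes was not tested. Of 17 licensing genes, Orc1 (0.91) and Recql4 (1.26) rose with all 4 libraries, where 4.59% of all genes rose and 4.6% fell. Without replicate 3, 12 of the 17 rose, led by Recql4 (1.55), Orc1 (1.16) and Cdt1 (1.09). In that fit 18.3% of all genes rose and 14.9% fell. Of 29 fork genes 0 and then 23 rose, led by Hells (1.03) and Pole (0.96), and 0 fell in either fit. Of 47 spindle genes 0 passed, and without replicate 3 there were 4 higher, led by Cenph (0.88), and 5 lower, led by Cdca3 (-0.52). E2f2 (-2.71), Rb1 (-0.63) and Lin37 (-0.39) of the 21 regulators fell, and 5 rose and 4 fell without replicate 3, led by E2f2 (-2.37), E2f6 (1.22) and E2f3 (1.01). Of 9 histone genes, Hist3h2a fell (-0.93).

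Between the transplanted and untransplanted knockouts, limma called 0 of the 43 genes and 0 of 11632 genes in all (0%), and at an unadjusted p under 0.05 there were 0 replication and 2 mitotic genes against 5.85% of all genes. The median log2 changes were -0.35 for replication and -0.65 for mitosis with all 4 libraries, and 0.04 and -0.20 without replicate 3, where again 0 passed. With all 4 libraries 0 of the 43 changes were positive, against 47.9% of all genes. Mcm3 (-0.66) and Mcm6 (-0.64) were the lowest replication genes and Cdk1 (-0.81) and Cenpf (-0.80) the lowest mitotic genes. Without replicate 3, the 95% interval was -0.32 to 0.18 for Mcm6, -0.21 to 0.36 for Mcm2, -0.62 to 0.16 for Mki67 and -0.86 to -0.21 for Cenpf (adjusted p = 0.358). The transplanted libraries lay below the untransplanted ones without overlap for 7 mitotic genes with or without replicate 3, against 2.53% of all genes with it, and above them for 0 with it, against 3.46%. These were Cenpf, Cenpe, Ccnb2, Cdc20, Bub1b, Tpx2 and Kif20a. Without replicate 3, Chaf1a was the 1 replication gene whose transplanted libraries lay above the untransplanted ones (0.18). Fewer libraries overlap less often, and the shares of all genes were not counted without replicate 3. The 2.53% and 3.46% therefore do not apply to the counts without it. Of the further lists, 0 genes passed.

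**Figure D5:**
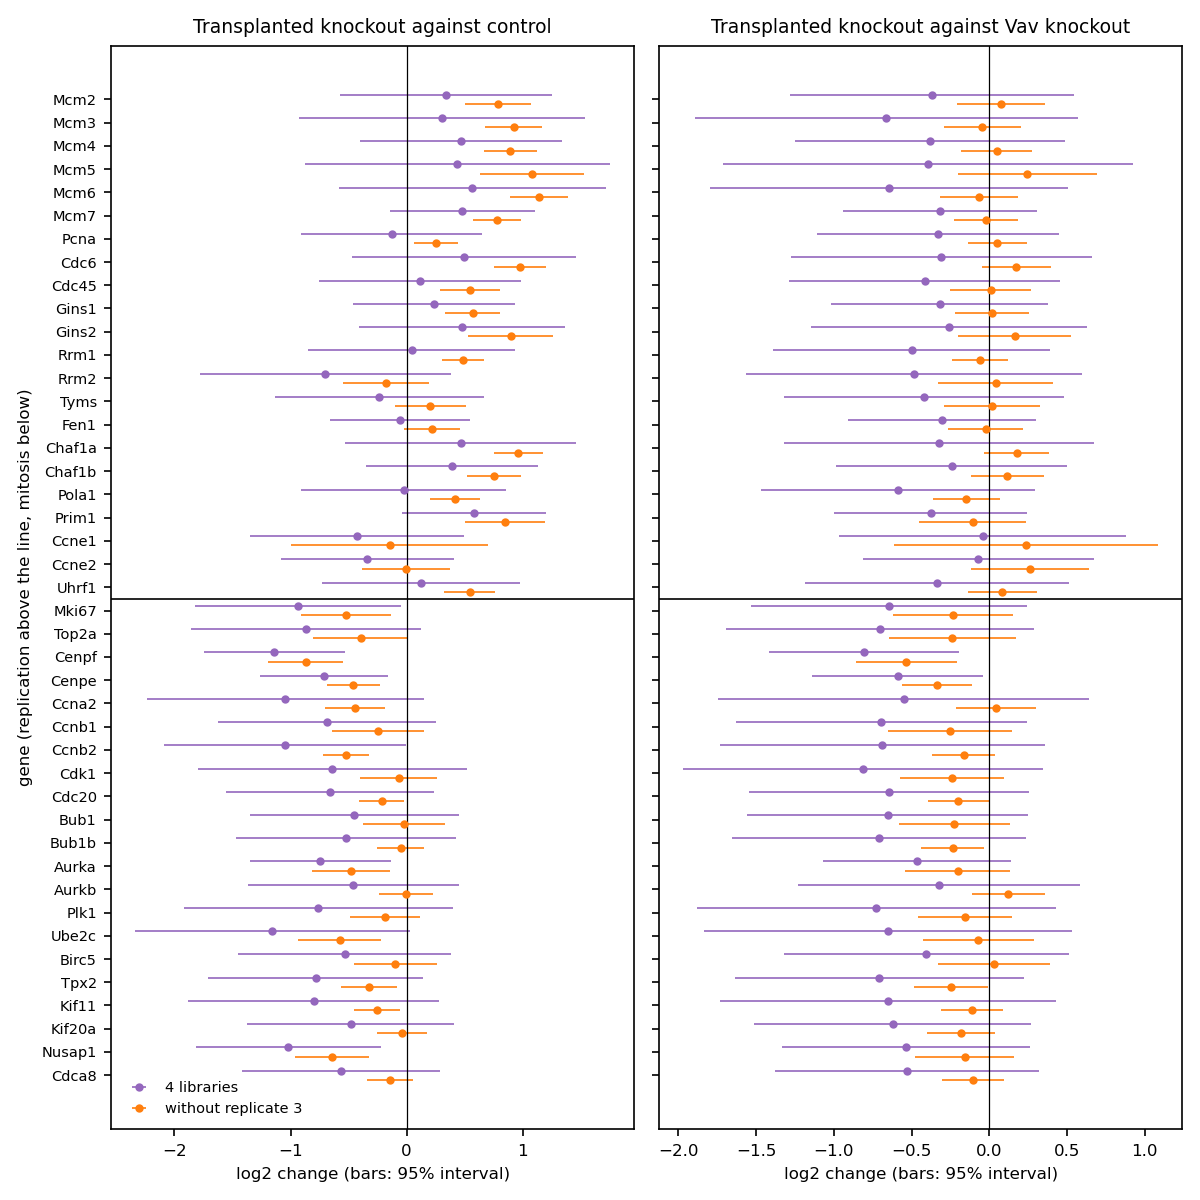
Log2 change of each of the 43 genes in the transplanted knockouts against the 8-week controls (left) and against the untransplanted Vav knockouts (right), with 95% intervals, with all 4 libraries (purple) and without replicate 3 (orange). The purple intervals are wide and the orange ones narrow, and on the left the orange points of the 17 called replication genes lie at 0.25 to 1.14.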

How the data were processed

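The authors deposited 3 tables of FPKM values, 1 per comparison of Cre driver and age, with 43430 genes each, of which 42462 had a symbol. RNA was isolated with RNeasy kits and made into libraries with NuGEN Ovation Ultralow systems, per the labels' protocols. Trimmomatic 0.33, STAR, HTSeq 0.6.1, DESeq2 and the mm10 build are named per the submitters' processing notes. Their settings, the annotation, gene lengths and strand are not given in the sources used here. FPKM sums ran from 198963 to 250725 per library. Low values implied 5.49 to 37.5 M reads, but only 45.8% to 55.9% of them came out whole within 0.03 reads, so read counts were not recovered, no count model was run, and differences in depth set the precision of low genes.

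The 22 libraries were matched to groups by title, 0 sample columns were unused and 0 pairs were identical. Values were taken as log2(FPKM + 1). Genes reaching 1 FPKM in 3 or more libraries per table fitted were tested with limma 3.58.1 (trend, R 4.3.3), two-sided, adjusted by Benjamini-Hochberg over all genes tested, at 0.05. The 10 libraries of the 8-week table shared 1 fit, and differences of effects were interaction terms over 12 libraries. The tables may have been normalized separately, which the sources do not say, so levels are compared within a table. Scripts were tested on simulated data. Members and lists were chosen with earlier results of these data known. Values per library are given for 16 chosen genes and for called genes with large changes, and the 2 largest changes in each direction are named for each comparison and gene group, with up to 4 called genes of each further list. For 1 gene of these lists the result is not reported here. Alternatives were other pseudocounts, filters, scalings, variances, a replicate block, the groups compared alone and each library left out. Promoters are from RefSeq (GRCm38.p6).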

Additional observations from a re-analysis of the deposited data

Results flagged for a closer look

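Transplanted replicate 3 lay far from the other transplanted libraries in the median level of the replication genes (-1.14 against 0.61 to 0.68, log2 against the control mean) and of the mitotic genes (-2.01 against -0.46 to -0.19). By Dixon's test at the 95% level it was also the low outlier among the 4 libraries for 9 of the 43 genes. The genes were measured in the same 4 libraries and moved together there, so the 9 flags are not independent. The share of all genes flagged was not counted. The replication genes flagged were Rrm1 (28.2 FPKM), Fen1 (0.109 FPKM), Chaf1a (7.95 FPKM), Pola1 (2.83 FPKM) and Uhrf1 (12.6 FPKM). Among mitotic genes they were Cdk1 (1.94 FPKM), Cdc20 (9.53 FPKM), Bub1b (8.71 FPKM) and Cdca8 (2.53 FPKM).

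The effect of the knockout differed, by an interaction in limma at an adjusted p of 0.05, in 2 comparisons. Between the Cre drivers 1 of the 43 genes passed, against 3.3% of 10541 genes. Between the ages 15 passed, against 18.2% of 10489 genes. Ccna2 had a lower effect with Vav than with Lck at 4 weeks (-0.45), a call lost in 13 of 20 alternatives. The Vav effect was higher at 8 than at 4 weeks for Mcm2 (0.54), Mcm3 (0.63), Mcm4 (0.57), Mcm5 (0.54), Mcm6 (0.91), Mcm7 (0.56), Cdc6 (0.60), Cdc45 (0.46), Gins2 (0.59), Rrm1 (0.45), Chaf1a (0.66), Chaf1b (0.52), Pola1 (0.62), Prim1 (0.73) and Uhrf1 (0.49). The calls of Cdc45, Gins2 and Uhrf1 were lost in 13, 11 and 14 alternatives. Each driver or age is a table of its own, and neither can be told apart from the table.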

How the results depend on the processing

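Leaving out 1 library turned the sign of 3 medians: that of the mitotic genes in the 4-week Vav comparison (-0.011, from -0.088 to 0.014), that of the replication genes in the Vav against Lck comparison (-0.047, from -0.13 to 0.017) and that of the replication genes between transplanted and untransplanted knockouts (-0.35, from -0.51 to 0.044). No other median did so in the alternatives run. Count models (edgeR, DESeq2) were not run, since no read counts were at hand. In the 4-week Vav comparison, where 0 genes were called, a mean of 5 FPKM or quantile normalization each called 1 replication gene higher (Mcm7), and the same-sum scaling 1 replication gene (Ccne2) and 1 mitotic gene (Ccna2) lower. With 1 library left out there were 0 to 1 replication genes higher (Prim1 without knockout replicate 1) and 0 to 1 mitotic genes lower (Mki67 without knockout replicate 2). In the Lck comparison a mean of 5 FPKM called 1 replication gene (Mcm6). The same-sum scaling moved the medians there from 0.16 to 0.077 and from 0.18 to 0.097. It moved the median of all genes from 0.016 to -0.060.

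In the 8-week Vav comparison a pseudocount of 0.1 gave a replication median of 0.66. The same-sum scaling gave 0.47, with a mitotic median of -0.26 and a median of -0.12 for all genes. The groups alone gave 17 replication genes higher and 5 mitotic genes lower. With 1 library left out the counts ran from 0 to 16 and from 0 to 4, the upper ends without transplanted replicate 3, and the replication median from 0.59 to 0.66. For transplanted knockouts against controls, where 1 mitotic gene was lower, there were 0 without a filter or with the groups alone and 2 under the same-sum scaling (Cenpf and Cenpe). Leaving out 1 library gave 0 to 9 mitotic genes lower and 0 to 17 replication genes higher, the upper ends again without replicate 3.

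In the Vav against Lck comparison the 1 mitotic call fell to 0 without a filter, with median-of-ratios scaling and with the replicate block. Leaving out 1 library gave 0 to 1 mitotic and 0 to 1 replication genes lower (Pola1 without Lck knockout replicate 1) and a mitotic median from -0.27 to -0.15. In the age comparison the 15 replication genes became 10 without a filter and 9 to 15 with 1 library left out, and the 0 mitotic genes lower became 2 under the same-sum scaling and 0 to 2 with 1 library left out. The cause of these changes was not tested. Mcm2, Mcm4, Mcm6, Mcm7, Cdc6, Rrm1, Chaf1a and Pola1 kept their call in all 20 alternatives of the age comparison. Correlations of deviations between libraries of the same replicate number were small, from -0.11 to 0.18. In the 8-week Vav comparison each control still matched the knockout of its own number best, at 0.043, 0.056 and 0.054. The replicate block left 11 of the 15 called in the age comparison.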
